A study of Mus musculus with 8 samples.

Results

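Mouse genes that span 200 kb or more form a small part of the gene catalogue but hold a large stretch of the genome, and the level of 5-hydroxymethylcytosine (5hmC) within them was examined here. The members were all protein-coding genes on the autosomes whose annotated span in GENCODE release M1 (mm9 assembly) was at least 200000 bp. The rule uses the span alone. They numbered 909 of 21418 autosomal protein-coding genes, and their merged spans made up 15.4% of the autosomes. For comparison, 6933 genes of 20 to 100 kb that overlapped no long gene were used, after 114 of the 7047 genes of that size had been left out for such an overlap. 5hmC had been mapped by GLIB-Seq, in which a glucose is added to 5hmC, the sugar is oxidised with periodate and biotin is coupled to it, so that fragments carrying the modification can be captured and sequenced. There was 1 library for each of 6 conditions: embryonic stem cells (ESCs) of the E14 line, mouse embryonic fibroblasts (MEFs; embryonic day 11 in the sample labels), brain and liver of 8-week-old mice, and ESCs in which a hairpin RNA targeted Suz12 (shSuz12) or, as the control, GFP (shGFP). Brain and liver are whole tissues of mixed cell types, the ESCs are 1 line, and which hairpin against Suz12 was used for the library is not given in the sources used here. With 1 library a condition there is no replicate spread and no test between conditions, and all intervals below are exact (Clopper-Pearson) 95% intervals that cover counting error alone.

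5hmC is made from 5-methylcytosine by the TET enzymes, and since 5-methylcytosine in mammals is found almost only at CpG dinucleotides, the number of CpGs in a stretch of DNA limits how much 5hmC it can carry. The modification is known to lie mainly in gene bodies and at regulatory elements, and it is most abundant in neurons. Very long genes in mammals owe their length to introns, and many of them encode cell adhesion molecules, receptors and channels of the nervous system, while others encode transcription factors, kinases and structural proteins. Suz12 is a subunit of Polycomb repressive complex 2 (PRC2), which methylates lysine 27 of histone H3.

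To show what hydroxymethylated DNA within long genes looks like, reference sequence was read from the mm9 genome, plus strand, with every CG in capitals (CG reads the same on both strands). The first 4 stretches are the middle of the widest region that lay under peaks of all 6 libraries in 4 of the 5 most covered long genes. They came from 4933407C03Rik (chr8:119827819-119828018), Zfhx3 (chr8:111422792-111422991), Foxn3 (chr12:100473811-100474010) and Sh3pxd2a (chr19:47522834-47523033), all 4 in introns of these genes. In each, all 200 bp lay under a peak in every library.
4933407C03Rik: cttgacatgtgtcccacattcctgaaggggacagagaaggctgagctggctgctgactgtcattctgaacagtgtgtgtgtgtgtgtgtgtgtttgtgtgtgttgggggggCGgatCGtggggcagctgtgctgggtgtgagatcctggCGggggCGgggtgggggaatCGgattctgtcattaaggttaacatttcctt
Zfhx3: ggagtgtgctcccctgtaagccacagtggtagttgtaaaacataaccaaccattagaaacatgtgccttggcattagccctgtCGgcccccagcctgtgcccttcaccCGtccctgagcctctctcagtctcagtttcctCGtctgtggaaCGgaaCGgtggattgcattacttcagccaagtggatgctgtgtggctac
Foxn3: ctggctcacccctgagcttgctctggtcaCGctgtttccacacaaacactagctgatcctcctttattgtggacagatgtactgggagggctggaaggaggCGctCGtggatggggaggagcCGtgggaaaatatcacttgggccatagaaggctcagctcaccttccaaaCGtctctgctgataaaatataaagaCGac
Sh3pxd2a: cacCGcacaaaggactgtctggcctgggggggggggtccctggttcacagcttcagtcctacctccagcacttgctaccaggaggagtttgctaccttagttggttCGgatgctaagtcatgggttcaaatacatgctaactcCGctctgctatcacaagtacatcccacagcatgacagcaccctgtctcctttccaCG
These stretches held between 4 and 6 CpGs, with 4 in Sh3pxd2a and 6 in Foxn3, and the full shared regions of 836 to 1532 bp around them held 20 to 36.

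A further 3 stretches show genes at the other end of the range or with a difference between cell types, and the last 2 were chosen after their values had been seen. The first is the middle of the shGFP peak within Gm10406 (chr14:7726124-7726323), the only peak of any library in that gene. The second is the middle of the liver peak with the highest score in Ghr (chr15:3514936-3515135), where no other library had a peak. The third is from Zfp423 (chr8:90327181-90327380), the middle of its widest region under peaks of every library except liver.
Gm10406: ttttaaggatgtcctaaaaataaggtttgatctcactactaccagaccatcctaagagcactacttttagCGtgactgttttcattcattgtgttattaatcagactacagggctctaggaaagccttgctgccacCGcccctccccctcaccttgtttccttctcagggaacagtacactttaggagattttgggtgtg
Ghr: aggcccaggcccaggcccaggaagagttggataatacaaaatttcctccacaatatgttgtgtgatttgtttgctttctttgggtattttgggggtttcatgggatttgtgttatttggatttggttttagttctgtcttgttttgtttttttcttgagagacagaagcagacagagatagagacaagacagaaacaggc
Zfp423: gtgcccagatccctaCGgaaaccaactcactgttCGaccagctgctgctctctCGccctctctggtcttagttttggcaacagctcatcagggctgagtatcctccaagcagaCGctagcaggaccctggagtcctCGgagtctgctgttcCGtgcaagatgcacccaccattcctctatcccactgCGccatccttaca
All 3 lay in introns. The Ghr stretch held no CpG, although the liver peak of 2664 bp around it held 26, whereas the Zfp423 stretch held 7 in 200 bp.

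The lists held 171520 autosomal peaks in ESCs, 216254 in MEFs, 157473 in brain, 130289 in liver, 132625 in shGFP and 138224 in shSuz12, and covered between 3.37% of the autosomes (shSuz12) and 8.39% (MEFs). The peak score is the value written by the peak caller MACS, which rises as the p-value falls. Its lowest value was 80 in ESCs and liver, 50 in shGFP, 30.3 in shSuz12 and 30 in MEFs and brain, so the lists were cut at different depths of score. The sequencing depth is unknown. Because of this, values at a common score of at least 80 are given beside the density ratios, the counts of genes without a peak, the calls between libraries, and some lists and named genes. All other values, among them those of most named genes, of length and CpG classes, of chromosome 8 and of exons, rest on the whole lists. At this score brain kept 33185 peaks and MEFs 73991, while ESCs and liver kept all. The coverage of a gene is also given relative to the share of the autosomes covered in the same library (relative coverage, where 1 is the level of the autosomes).

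The 909 long genes had a median span of 320 kb and reached 4435 kb. There were 503 genes of at least 300 kb, 188 of at least 500 kb and 48 of at least 1000 kb. Most of their length was intron: exons took 1.90% of the merged span, against 10.4% in the genes of 20 to 100 kb, and 479 of the 909 had a first intron of over 50 kb. They were poorer in CpG, with a median of 8.05 CpGs per kb against 11.2 in the genes of 20 to 100 kb. Their spans overlapped no other protein-coding gene in 706 cases, and 8 overlapped 5 or more, among them the 2 longest spans of the annotation.

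In ESCs, liver and both hairpin libraries the long genes held far fewer 5hmC peaks per base than the genes of 20 to 100 kb. The shortfall was smaller in brain, and in MEFs the long genes came close to the shorter ones. Long genes held 5.93 peaks per 100 kb in ESCs against 15.4 in the genes of 20 to 100 kb, a ratio of 0.386 (95% interval 0.380 to 0.392). In liver they held 5.39 against 13.4 peaks per 100 kb (0.402, 0.396 to 0.409). In shGFP the values were 4.51 against 11.0 peaks per 100 kb (0.409, 0.401 to 0.417), and in shSuz12 5.04 against 11.8 (0.426, 0.419 to 0.434). The ratio was far higher in the other 2 libraries. Long genes held 9.36 against 12.4 peaks per 100 kb in brain (0.756, 0.745 to 0.767) and 11.7 against 12.4 in MEFs (0.940, 0.927 to 0.953). Of all autosomal peaks of a library, 13.2% lay in long genes in ESCs, 20.6% in MEFs, 22.6% in brain, 15.8% in liver, 13.0% in shGFP and 13.9% in shSuz12. Set against the 15.4% of the autosomes that these genes take up, that is above their share of the sequence in MEFs and brain, close to it in liver and below it in the 3 ESC libraries.

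The percent of the span under peaks gave a similar picture. Peaks covered 5.98% of the merged long genes in ESCs, 11.5% in MEFs, 11.8% in brain, 6.90% in liver, 4.01% in shGFP and 3.01% in shSuz12. The genes of 20 to 100 kb were covered to 16.6, 12.2, 15.9, 18.3, 10.2 and 7.23%, respectively. By gene, the median long gene was covered to 2.51% in ESCs, 9.21% in MEFs, 8.79% in brain, 1.51% in liver, 2.01% in shGFP and 1.67% in shSuz12. With the whole lists, the MEF median alone was above that of the shorter genes (7.77%). At a score of at least 80 the median relative coverage of long genes was above that of the shorter genes in brain (0.578 against 0) and shSuz12 (0.203 against 0) as well. A median of 0 means that most of the shorter genes had no covered base at this score. Over the merged spans the long genes were still less covered at this score, with 4.24 against 6.19% in brain and 0.704 against 1.86% in shSuz12. With the whole lists, 226 long genes (24.9%) had no peak in liver, 72 (7.92%) in ESCs, 61 (6.71%) in shGFP, 52 (5.72%) in shSuz12, 41 (4.51%) in brain and 20 (2.20%) in MEFs. Of all 9328 autosomal protein-coding genes of at least 20 kb, 22.7% had none in liver, near the share of the long genes. In the other libraries this share was above that of the long genes. It was 12.3% in ESCs, 14.7% in shGFP, 12.9% in shSuz12, 13.8% in brain and 13.0% in MEFs. The order of the long-gene counts was not kept at a score of at least 80, where 381 had none in shSuz12, 249 in brain, 226 in liver, 140 in shGFP, 120 in MEFs and 72 in ESCs. No share over all genes was taken at that score.

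**Figure D1:**
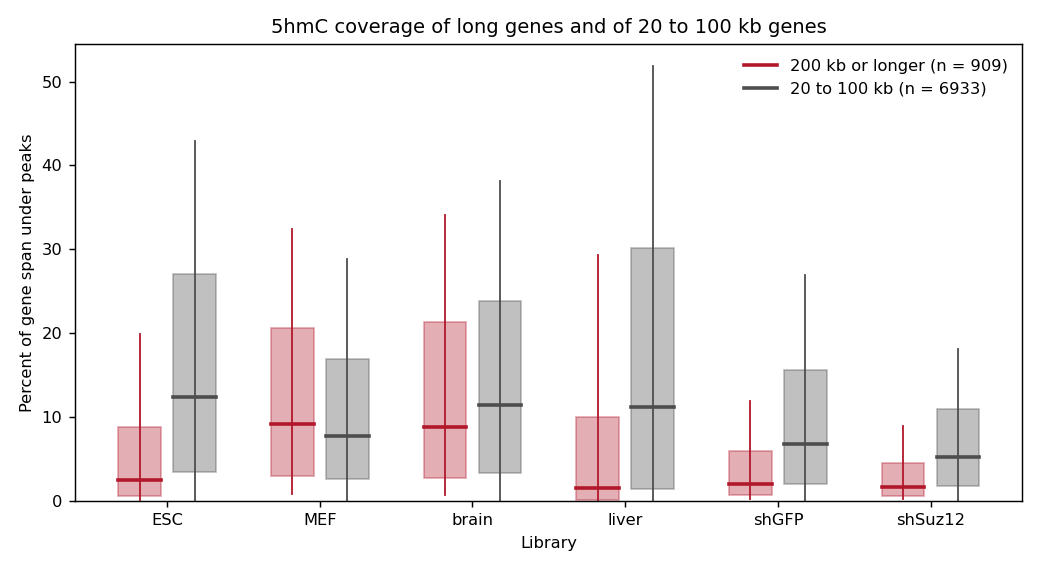
Percent of the gene span under 5hmC peaks (y axis) in each library (x axis) for the 909 long genes (red) and the 6933 genes of 20 to 100 kb (grey). Thick lines are medians over genes, boxes the middle 50% of the genes, and vertical lines run from the lowest to the highest value after the outer 10% at each end are left out; the red median is below the grey one in every library but MEFs (9.21 against 7.77%).

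The contrast between the libraries held without the weak peaks of the longer lists. With a score of at least 80 in all lists, the ratio of peak density in long genes to that in genes of 20 to 100 kb was 0.947 in MEFs (95% interval 0.925 to 0.969) and 0.689 in brain (0.669 to 0.710), against 0.386 in ESCs, 0.402 in liver, 0.388 in shGFP and 0.386 in shSuz12. CpG density moved with the difference. The shorter genes were then limited to the 2284 whose CpG density lay between the quartiles of the long genes (6.29 and 10.4 CpGs per kb). The long genes were not limited, so the 2 sets still differ in CpG density. The ratio rose to 0.824 in ESCs, 0.935 in shGFP and 0.902 in shSuz12. In MEFs (1.56) and brain (1.32) the direction turned. With both sets held to 8 to 10 CpGs per kb, the median long gene held 14.8 peaks per 100 kb in MEFs against 6.41 in the shorter genes. In brain the medians were 12.4 against 6.27, whereas in ESCs (5.12 against 6.82) and liver (3.10 against 8.55) the long genes were lower. Liver, at 0.537, had the lowest ratio. A score of at least 80 together with the CpG limits on the shorter genes gave 2.16 in MEFs and 2.30 in brain. ESCs stood at 0.824 and liver at 0.537. The ratio was 1.14 in shGFP and 1.28 in shSuz12, which turned the direction in these 2 as well, with the long genes again not limited.

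Coverage fell with length in all libraries among the long genes. In ESCs the median coverage was 4.71% for the 406 genes of 200 to 300 kb, 2.20% for the 315 of 300 to 500 kb, 1.21% for the 140 of 500 to 1000 kb and 0.404% for the 48 of 1000 kb or more. Liver went from 3.46 to 1.24, 0.462 and 0.135% over the same classes. In MEFs the medians were 12.3, 9.40, 6.05 and 2.59%, and in brain 12.2, 8.32, 6.47 and 2.49%. Below 200 kb the libraries parted: coverage in ESCs fell steadily from 13.9% at 20 to 50 kb to 7.09% at 100 to 200 kb, whereas in MEFs it rose from 7.42 to 11.6% and in brain from 11.5 to 13.0%. The median CpG density fell along the same classes, from 11.7 per kb at 20 to 50 kb to 9.02 at 200 to 300 kb and 5.70 at 1000 kb or more. Its part in the fall of coverage was not tested.

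Among the long genes themselves, the genes rich in CpG were the ones most covered by peaks. The rank correlation (Spearman's rho) across the 909 genes between CpG density and percent of span covered was 0.885 in ESCs, 0.857 in MEFs, 0.864 in brain, 0.867 in shGFP and 0.880 in shSuz12, and 0.582 in liver. These are descriptions within 1 library each, and the genes of a library share its depth and threshold. The 181 long genes with fewer than 6 CpGs per kb had a median coverage of 0.208% in ESCs, 0% in liver, 1.21% in MEFs and 0.885% in brain. The 154 genes with 10 to 12 CpGs per kb were at 10.3, 7.15, 22.3 and 24.8% in this order. Shorter genes of that CpG density had 12.3% in ESCs, 14.6% in liver, 8.46% in MEFs and 12.8% in brain, so long genes of this class were above the shorter ones in MEFs and brain and below them in ESCs and liver. Liver differed from the rest in how the CpG-rich genes behaved. Of the 265 long genes with at least 10 CpGs per kb, 95 were covered to at least 20% of the span in liver, but 45 (17.0%) to less than 1%. In each of the other libraries 1 of the 265 was below 1%: Adamts17, a secreted metalloproteinase, in ESCs (0.905%) and shGFP (0.395%), Gm2792 in MEFs (0.301%) and brain (0%), and Sfmbt2, a Polycomb group gene, in shSuz12 (0.988%). These names were taken after the values had been seen. CpG-rich genes bare in liver were not particular to the long genes. Of the 1446 genes of 20 to 100 kb with 10 to 12 CpGs per kb, 253 had no peak in liver. In ESCs 54 of them had none, in MEFs 133 and in brain 114. Of the 154 long genes of that class, 8 had no peak in liver. The share below 1% was not taken over the shorter genes.

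**Figure D2:**
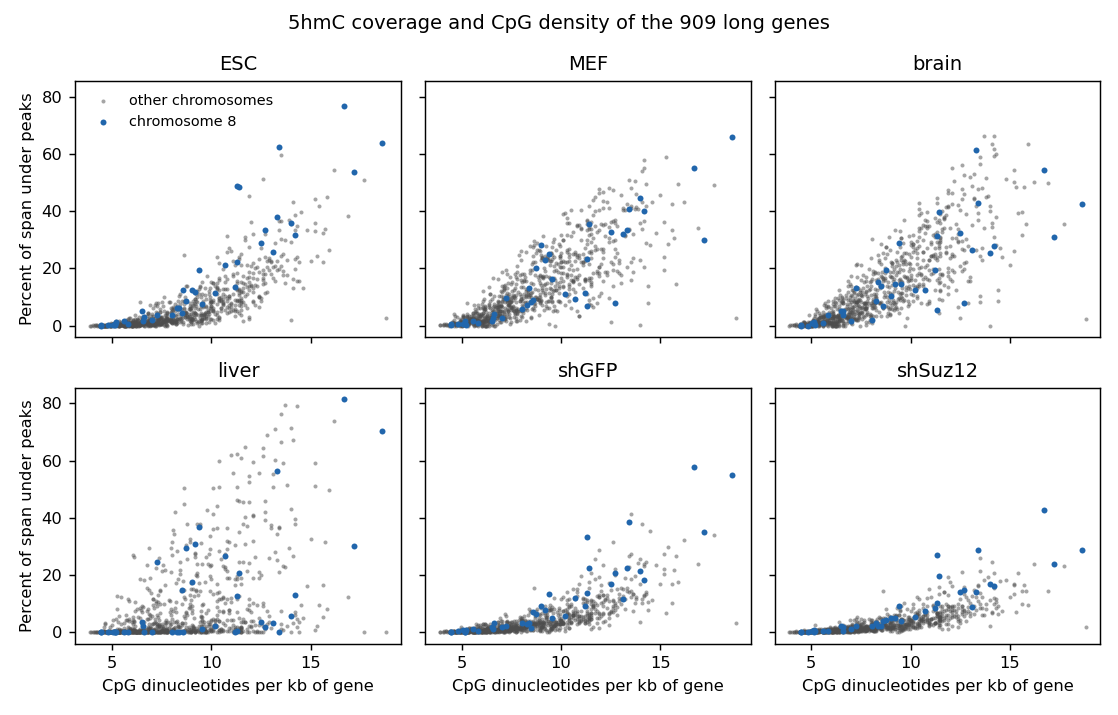
Percent of the span under peaks (y axis) against CpG dinucleotides per kb (x axis) for the 909 long genes in each library, 1 point a gene, with the 40 genes on chromosome 8 in blue. Coverage rises with CpG density in all 6 panels, and in liver the CpG-rich genes spread from 0 to over 80% of the span.

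Chromosome 8 stood apart in the ESC libraries. The 40 long genes on it had a median relative coverage of 1.38 in ESCs against 0.330 for the 869 on other autosomes, 1.22 against 0.40 in shGFP and 1.25 against 0.469 in shSuz12. In MEFs (1.13 against 1.10), brain (1.58 against 1.11) and liver (0.274 against 0.220) the gap was smaller. What goes with this difference was not tested. Without chromosome 8 the density ratio of long to shorter genes fell to 0.355 in ESCs, to 0.375 in shGFP and to 0.390 in shSuz12. Several of the members named below lie on this chromosome, which is stated where they appear.

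How much of a gene can be read also varied, because the authors kept reads with a unique hit. Of 32-mers taken every 250 bp, 89.7% occurred at 1 place in the mm9 genome in long genes and 89.9% in genes of 20 to 100 kb. The median long gene was at 91.9%, but 13 of the 909 were below 50%. Across the 909 genes this share was ranked like coverage with a rho of 0.711 in brain, 0.685 in MEFs, 0.581 in ESCs and 0.425 in liver. Its part in the coverage of a gene was not tested.

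Along the gene, long genes were covered most evenly in MEFs and were U-shaped in the ESC libraries and liver. Spans were divided into 10 equal parts in the direction of transcription. In ESCs the first 10% held 6.79 peaks per 100 kb, the middle 20% 5.03 and the last 10% 8.16. In MEFs the same parts held 11.6, 11.3 and 12.7 peaks per 100 kb, and in brain 9.12, 8.92 and 11.2. The ratio of the last part to the first was 1.23 in brain (95% interval 1.18 to 1.29), 1.20 in ESCs (1.14 to 1.27), 1.11 in both shGFP and shSuz12 (1.05 to 1.18 in each) and 1.10 in MEFs (1.06 to 1.15). Liver held 6.24 peaks per 100 kb in the first 10%, 5.13 in the middle 20% and 5.82 in the last 10%. There the last part was below the first, with a ratio of 0.933 (0.880 to 0.989). For the 503 genes of at least 300 kb the liver ratio was 0.995. The first part was denser than the middle by 1.35 times in ESCs, 1.38 in shGFP, 1.26 in shSuz12 and 1.22 in liver, but by 1.02 in both MEFs and brain. The genes of 20 to 100 kb had other shapes: in ESCs their first part was below the middle (0.941 times), in MEFs above it (1.25 times), and in brain the last part exceeded the first by 1.65 times.

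**Figure D3:**
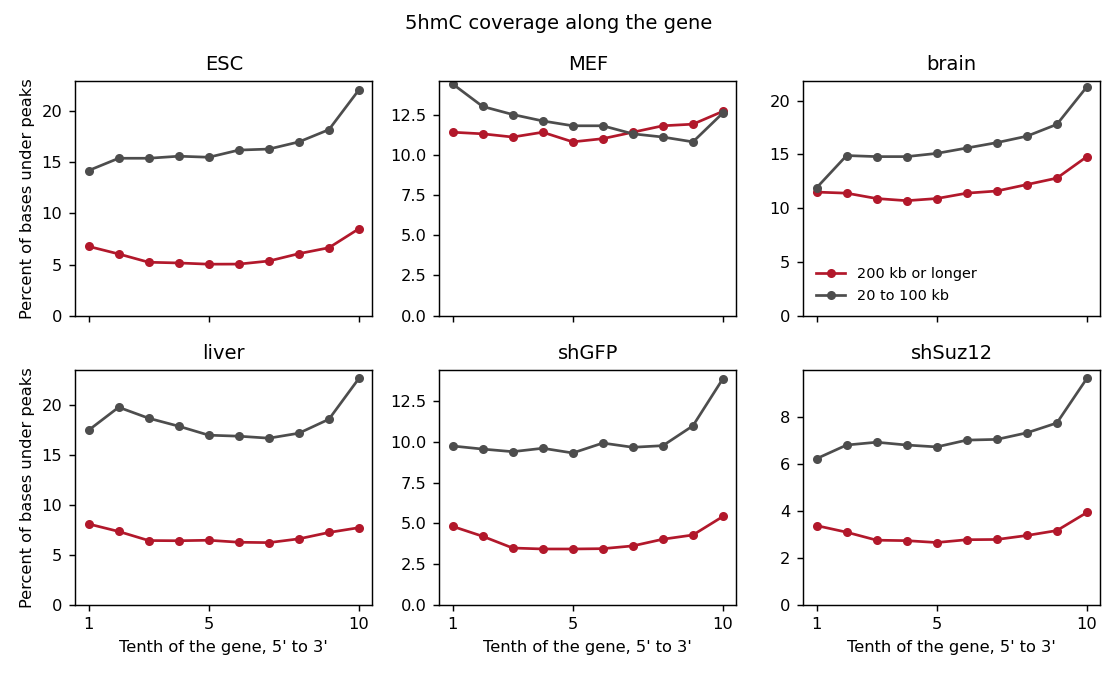
Percent of bases under peaks (y axis) in 10 equal parts of the gene from its start to its end (x axis), over all long genes (red) and all genes of 20 to 100 kb (grey), in each library. The y axes start at 0 and differ in height; in the ESC panel the red line falls from 6.78% to 5.04% and rises to 8.51%, and in the MEF panel it stays between 10.8 and 12.7%.

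The ends of the long genes were read in bp as well. The first 1 kb after the gene start was covered to 9.31% in ESCs and 11.1% in shGFP, above the middle of the genes, but to 3.95% in brain and 3.60% in liver, below it. MEFs stood at 7.03% and shSuz12 at 4.94%. Between 1 and 5 kb after the start, coverage was already 12.4% in brain, 12.2% in liver and 14.1% in MEFs, so the low stretch at the start was short. The last 1 kb before the gene end was covered to 21.3% in brain, 17.7% in MEFs, 14.1% in ESCs and 12.6% in liver. In MEFs and brain coverage was higher inside than outside the genes: 50 to 100 kb inside the start it was 13.2 and 12.9%, and 50 to 100 kb upstream of it 8.56 and 7.38%. In ESCs the inside (6.39%) and the outside (6.71%) at that distance lay closer together. The same held in shGFP (4.16 and 4.62%) and shSuz12 (3.24 and 3.24%), whereas liver had 8.83% inside and 5.91% outside.

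Exons of long genes were covered more than their introns in every library. In ESCs 18.2% of exon bases and 5.75% of intron bases lay under peaks, 3.16 times as much, and in shGFP and shSuz12 the ratio was 3.10 and 3.06. It was 1.58 in MEFs (17.9 against 11.3%), 1.99 in brain (23.0 against 11.6%) and 1.79 in liver (12.1 against 6.79%). In all 6 libraries the ratio was larger than in the genes of 20 to 100 kb, where it ran from 1.13 in MEFs to 1.94 in shSuz12. Since exons are so small a part of long genes, they took 5.78% of the covered bases in ESCs and 2.97% in MEFs. The first introns, 22.5% of the merged span (85.9 Mb), were covered to 7.61% in ESCs against 5.19% in the other introns. In MEFs the values were 12.2 against 11.1%. Among these introns is that of Gm20388, 4384 kb long, whose span runs over 74 other protein-coding genes. That span was covered to 53.8% in ESCs and 30.0% in MEFs. First introns were not measured without it, so the difference cannot be read as one of first introns in general.

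The most covered long genes were short for this class and rich in CpG. By the mean relative coverage over ESCs, MEFs, brain and liver the first 5 were 4933407C03Rik, Zfhx3, Etv6, Foxn3 and Sh3pxd2a, all of 204 to 255 kb and with 13.7 to 18.6 CpGs per kb, and stretches of shared peaks from 4 of them are shown in the sequences above. 4933407C03Rik (chr8:119780919-119985403), a gene known by its clone name, was covered to 76.9% in ESCs, 55.0% in MEFs, 54.5% in brain, 81.5% in liver, 57.9% in shGFP and 42.7% in shSuz12. It was the most covered long gene in ESCs, liver, shGFP and shSuz12. Zfhx3 (chr8:111238544-111485521), a homeobox and zinc finger transcription factor, was covered to 63.9, 66.0, 42.7, 70.3, 55.0 and 28.6% in the same order. Both lie on chromosome 8, and in both liver was above ESCs. By percent of span shSuz12, the list that covers least of the genome, was lowest in both. By relative coverage it was not: 4933407C03Rik was highest in shSuz12 (12.7). Zfhx3 stood at 8.50 in shSuz12, above MEFs (7.87) and brain (5.42).

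Etv6 (chr6:133985718-134220176), an ETS family repressor, was covered to 30.0% in ESCs, 50.7% in MEFs, 66.4% in brain, 79.5% in liver, 19.6% in shGFP and 18.1% in shSuz12. Foxn3 (chr12:100433213-100688284), a forkhead repressor, had 34.9, 49.7, 59.9, 79.1, 24.7 and 11.7%. In both genes the 3 ESC libraries were lowest and liver highest. Sh3pxd2a (chr19:47334664-47538901), which encodes a scaffold protein of podosomes, had 54.6, 43.1, 50.2, 73.9, 32.2 and 23.8%. MEFs were led by Zfhx3 and Glis1, a Kruppel-like zinc finger factor, which was covered to 58.9% in MEFs and 48.6% in brain but 2.12% in liver. Brain was led by Etv6 and Igf1r, the receptor for insulin-like growth factor 1. Igf1r was covered to 66.4% in brain, 55.3% in MEFs, 19.9% in ESCs and 6.94% in liver.

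The least covered members fell into 2 kinds. Catsperb, a subunit of the sperm calcium channel, and Gm3002, Gm3358 and Gm3383 had no peak in any library, and Gm10406 had the shGFP peak shown above and no other. The 4 genes with Gm names lie close together on chromosome 14, and their 32-mers were almost never unique: 0.0966% occurred at 1 place in Gm3002, 0% in Gm3358, 0.118% in Gm3383 and 9.90% in Gm10406. With so few unique 32-mers, a lack of 5hmC there cannot be told apart from a lack of unique hits. Which of them goes with the absence of peaks was not tested. In Catsperb 62.9% of the 32-mers were unique. Among the members with at least 80% unique 32-mers, a limit set after the values had been seen, the least covered were Cntnap5c, Trdn, Cntnap5b and Fstl5. Cntnap5c, of the neurexin superfamily, had 1 MEF peak in 641 kb and no peak elsewhere. Trdn, which encodes triadin of the muscle calcium store, had 1 MEF peak in 393 kb, Fstl5 2 MEF peaks in 636 kb, and Cntnap5b 1 peak in MEFs and 1 in brain in 713 kb. These 4 genes had 3.90 to 4.36 CpGs per kb, among the lowest of all members.

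The longest spans were Gm20388 (4435 kb), Fgfr2 (3009 kb), Ptprd (2271 kb), Cntnap2 (2241 kb) and Lrp1b (2058 kb). The first 2 are spans of the annotation that run over 74 and 32 other protein-coding genes, so that their coverage is that of a region and not of 1 gene. Gm20388, on chromosome 8, held 1516 peaks in ESCs, 1152 in MEFs, 940 in brain, 788 in liver, 1259 in shGFP and 1477 in shSuz12. Without the 8 spans that overlap 5 or more genes, a choice made once the values were known, the ratio of long to shorter genes was 0.361 in ESCs and 0.381 in shGFP.

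Of the other 3, Cntnap2 and Lrp1b were nearly bare in all libraries, and Ptprd was so in the ESC libraries. Cntnap2 (chr6:45010060-47251368), a neurexin family protein that clusters potassium channels at the axon, held 8 peaks in ESCs, 17 in MEFs, 7 in brain, none in liver, 9 in shGFP and 10 in shSuz12 over 2241 kb. Many of these peaks lay at the far end of the gene, with 6 of the 8 in ESCs, 9 of the 17 in MEFs and 6 of the 7 in brain in the last of 3 equal parts. Lrp1b, a member of the LDL receptor family, held 5, 12, 26, 1, 4 and 3 peaks in the same order. Ptprd, a receptor tyrosine phosphatase of synapses, was uneven between cell types, with 98 peaks in liver, 83 in MEFs and 48 in brain but 5 in ESCs, 3 in shGFP and 4 in shSuz12. Ptprd was thus more covered in liver (4.08%) than in any other library, and above the median long gene there (1.51%). In MEFs (2.97%) and brain (1.94%) it was below the medians of 9.21 and 8.79%. Its lowest values were those of the 3 ESC libraries. Auts2 was not bare. Auts2 (chr5:131913205-133019214), a chromatin-associated regulator of neuronal development that spans 1106 kb, held 90 peaks in ESCs, 298 in MEFs, 245 in brain, 9 in liver, 63 in shGFP and 87 in shSuz12. In MEFs (103, 97 and 98) and brain (84, 77 and 84) its peaks were spread evenly over the 3 parts of the gene. In the 3 ESC libraries the last part held most of them: 64 of 90 in ESCs, 44 of 63 in shGFP and 53 of 87 in shSuz12.

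**Figure D4:**
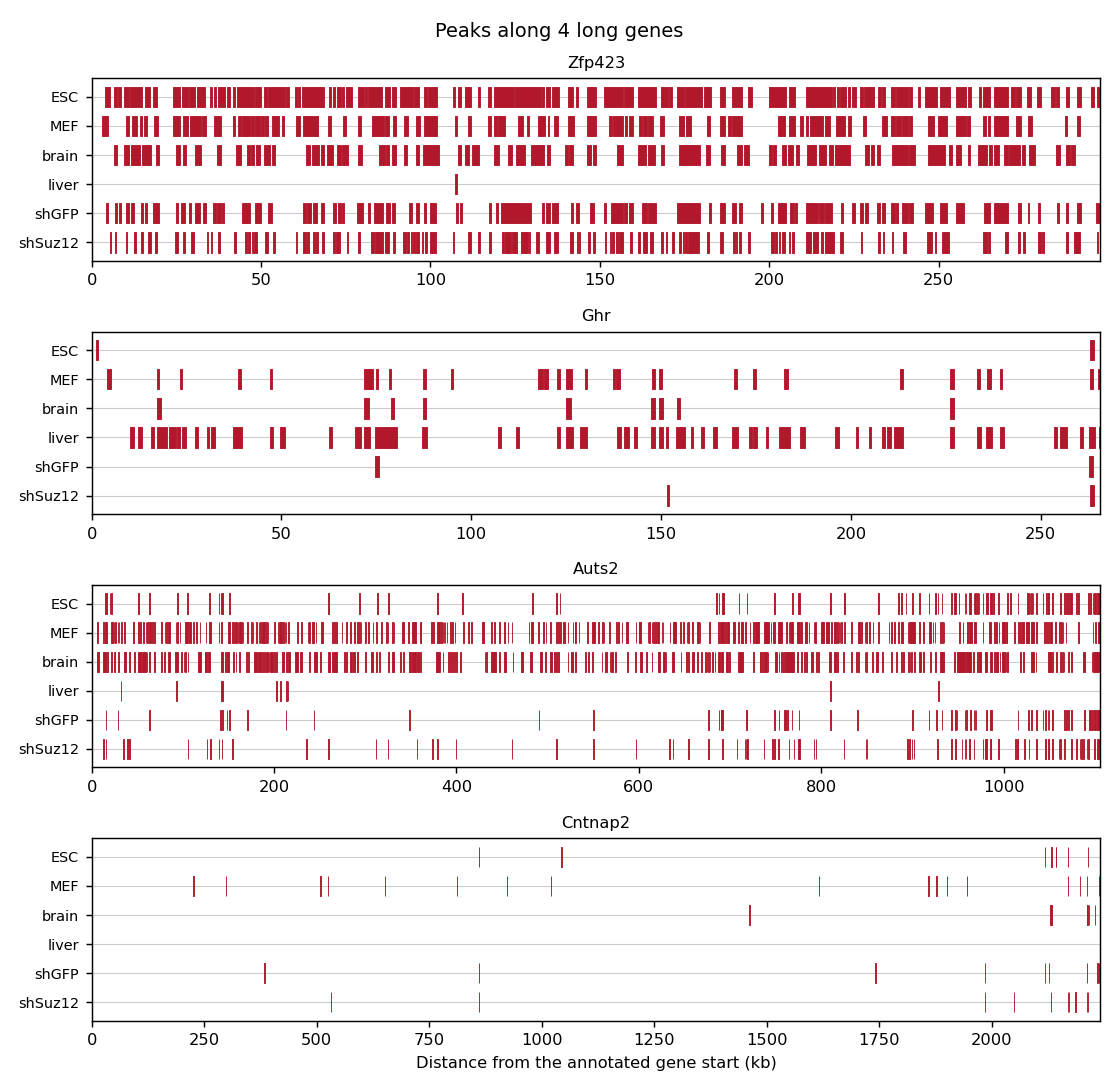
Peaks (red bars) along Zfp423, Ghr, Auts2 and Cntnap2 in each library (rows), by distance in kb from the annotated gene start (x axis). Zfp423 is densely covered in 5 libraries and has 1 peak in liver, Ghr has 56 peaks in liver and 2 in ESCs, Auts2 is evenly covered in MEFs and brain with most ESC peaks in its last part, and Cntnap2 is nearly empty.

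Long stretches without any peak were common. The longest peak-free stretch of a member had a median of 107 kb in ESCs, 45.9 kb in MEFs, 55.2 kb in brain, 181 kb in liver, 114 kb in shGFP and 107 kb in shSuz12. A stretch of at least 200 kb was found in 421 of the 909 genes in liver, 284 in ESCs and 110 in MEFs. The longest in liver was the whole of Cntnap2, 2241 kb. In ESCs it took nearly the whole of Lrrc4c (1313 kb), which encodes a netrin-G ligand of synapses, and in brain it lay in Cntnap2 (1462 kb). These lengths move with the threshold of the list, which was strictest in ESCs and liver.

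Long genes differed between cell types far more often in the direction of MEFs and brain than genes in general. A gene was counted as higher or lower when the relative coverage, with 0.1 added to both values, differed by at least 1.5 times, and the background is the same count over all 9328 autosomal protein-coding genes of at least 20 kb. In MEFs against ESCs 581 long genes (63.9%) were higher, against 24.3% of all genes tested, and 52 (5.72%) were lower, against 41.3%. In brain against ESCs 594 (65.3%, background 30.6%) were higher and 51 (5.61%, background 28.5%) lower. In liver against ESCs, lists with the same lowest score, 283 (31.1%, background 35.8%) were higher and 337 (37.1%, background 34.6%) lower, both near the background. In brain against liver 546 (60.1%, background 32.5%) were higher and 118 (13.0%, background 35.5%) lower. The median ratio of relative coverage over the 909 was 1.89 in MEFs against ESCs, 1.99 in brain against ESCs, 0.896 in liver against ESCs and 2.0 in brain against liver, while over all genes tested it was 0.838, 1.0, 1.0 and 1.0. The 3 comparisons with ESCs share the ESC library. With a score of at least 80 in all lists, 445 long genes were higher and 115 lower in MEFs against ESCs (background 19.0 and 49.0%), 392 and 182 in brain against ESCs (24.2 and 44.7%), and 409 and 203 in brain against liver (23.3 and 43.6%). Of the genes higher in MEFs, 425 were called in both ways, of those higher in brain than in ESCs 364, and of those higher in brain than in liver 375.

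The largest differences of MEFs over ESCs were in Eya4, Alcam, Camk2d and Slc8a1, genes of middling CpG density (7.69 to 8.97 per kb). Eya4, a transcriptional cofactor with phosphatase activity, held 1 peak in ESCs, 55 in MEFs, 15 in brain, 1 in liver, 2 in shGFP and 5 in shSuz12. Alcam, an immunoglobulin-type cell adhesion molecule, held 0, 30, 23, 34, 3 and 2. Camk2d, a subunit of calcium/calmodulin-dependent kinase II, held 2, 70, 39, 36, 3 and 5. In these 3 genes all ESC libraries were low and MEFs and brain were above them. Slc8a1, the sodium-calcium exchanger of heart and other tissues, held 1 peak in ESCs and 3 in liver against 51 in MEFs and 36 in brain, and was also among the largest differences of brain over ESCs. Brain over ESCs was led by Alcam and Slc8a1 with Sema5a, a guidance molecule of axons, and Slco3a1, an organic anion transporter. Sema5a held 62 peaks in MEFs, 56 in brain, 2 in ESCs and 1 in liver, and Slco3a1 held 43, 41, 2 and 1. At a score of at least 80, Eya4 kept 18 MEF peaks, Camk2d 29 and Slc8a1 20, while Alcam kept 7 in MEFs and 1 in brain.

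Of the 6 genes named for lower coverage in MEFs or brain than in ESCs, 2 lay on chromosome 8. Cacna1a, the pore of the P/Q-type calcium channel, was covered to 33.5% in ESCs, 7.95% in MEFs, 7.81% in brain, 1.64% in liver, 20.7% in shGFP and 14.6% in shSuz12. Hydin, a protein of motile cilia, was covered to 22.1, 6.83, 5.34, 0.245, 13.7 and 10.3%. Both lie on chromosome 8, and the 3 ESC libraries were the highest for both. Dnahc8, an axonemal dynein heavy chain on chromosome 17, was covered to 59.8% in ESCs, 41.1% in MEFs, 8.39% in brain, 7.41% in liver, 41.4% in shGFP and 25.9% in shSuz12. Igsf21, an immunoglobulin superfamily protein on chromosome 4, had 44.9% in ESCs, 14.5% in MEFs and 35.6% in brain. Pcdha11 of the clustered protocadherins, which shares its span with other genes of the cluster, had 8.47% in ESCs, 1.39% in MEFs, 2.74% in brain and no peak in liver. Gm2792 completed these lists with 8 peaks in ESCs, 1 in MEFs and none in brain, and 8.76% of its 32-mers were unique.

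Liver differed from the other libraries gene by gene, with some long genes densely covered in liver and others bare in liver only. Ghr (chr15:3267760-3533492), the growth hormone receptor, whose main site of action is the liver, held 56 peaks in liver and 2 in ESCs, 30 in MEFs, 9 in brain, 2 in shGFP and 2 in shSuz12. Peaks covered 26.2% of Ghr in liver and 0.619% in ESCs. Thrb, thyroid hormone receptor beta, held 50 peaks in liver, 1 in ESCs, 9 in MEFs, 6 in brain, 1 in shGFP and none in shSuz12. Both encode hormone receptors and both are poor in CpG (6.12 and 5.27 per kb). Cdh2, N-cadherin, was covered to 34.5% in liver, 1.10% in ESCs, 17.9% in MEFs and 19.0% in brain. Kcnn2, a calcium-activated potassium channel, had 40 peaks in liver and none in ESCs, with 16 in MEFs and 14 in brain. Sntb1, a syntrophin of the dystrophin complex, held 64 peaks in liver and 9 each in ESCs and brain, and Prr16, a proline-rich protein, 21 in liver, 1 in ESCs and 2 in brain.

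In the other direction, 4 genes dense in every other library were almost empty in liver. Zfp423 (chr8:90185709-90483494), a zinc finger transcription factor, held 122 peaks in ESCs, 98 in MEFs, 84 in brain, 1 in liver, 100 in shGFP and 123 in shSuz12. Tiam1 (chr16:89787356-90144014), an activator of the GTPase Rac, held 127, 135, 90, 1, 100 and 118. Grik3, a kainate receptor subunit, held 83, 41, 43, 1, 65 and 59, and Cdh4, R-cadherin, 93, 85, 89, 0, 60 and 57. The liver list and the ESC list have the same lowest score, and all 4 genes had over 90% unique 32-mers, with 12.2 to 17.7 CpGs per kb. Brain over liver was led by Fam19a5, Zfp423, Dscaml1 and Ptpro. Fam19a5, a secreted protein of the brain, was covered to 41.7% in brain, 10.5% in MEFs, 2.33% in ESCs, 1.60% in shGFP and 1.25% in shSuz12, with no peak in liver. Dscaml1, a neuronal adhesion molecule, had 30.1% in brain, 13.7% in MEFs, 12% in ESCs and no liver peak, and Ptpro, a receptor tyrosine phosphatase, 29.3, 7.08 and 3.71% with none in liver. Fam19a5 and Ptpro were highest in brain by a wide margin, whereas Zfp423 was highest in ESCs.

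**Figure D5:**
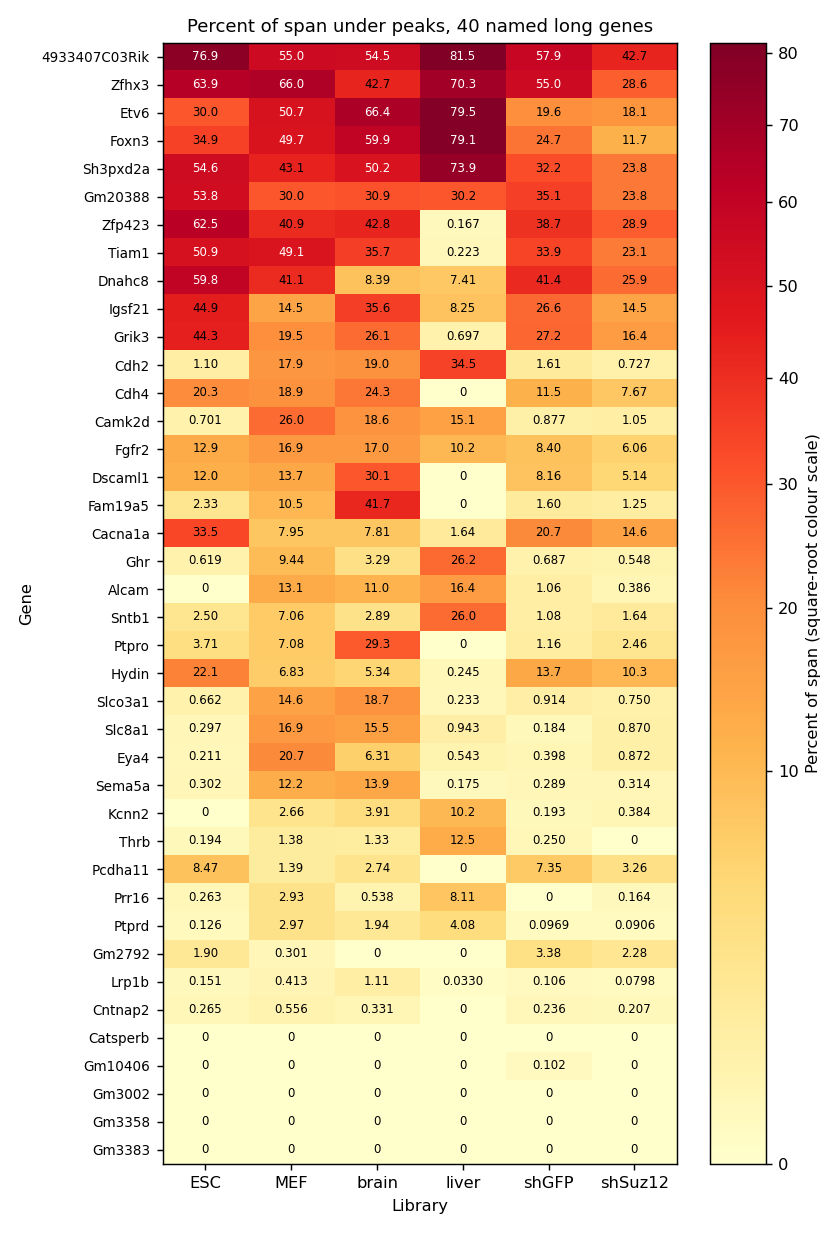
Percent of the span under peaks in each library (columns) for 40 named long genes (rows), ordered by mean relative coverage over ESCs, MEFs, brain and liver; the value is printed in each cell and the colour scale is a square-root scale. Zfp423, Tiam1, Grik3 and Cdh4 are at 0 to 0.697% in liver against 18.9% or more in ESCs, MEFs and brain, and Ghr, Thrb and Sntb1 are highest in liver.

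By function, the list of transcription factors and chromatin proteins had the highest median coverage in ESCs, MEFs, brain and liver. In ESCs its lead over muscle and cytoskeleton was small (6.99 against 6.73%), and in shGFP the order was reversed (4.78 against 4.93%). The lowest median was that of neuronal adhesion molecules in ESCs and liver and of glutamate and GABA receptors in MEFs and brain. Of the 59 members in the list of transcription factors and chromatin genes, 51 lay above the median of all long genes in MEFs, 48 in brain, 42 in liver and 40 in ESCs. Their median coverage was 24.6, 21.3, 6.06 and 6.99% against 9.21, 8.79, 1.51 and 2.51% for all 909. In MEFs against ESCs 47 of the 59 were higher and 2 lower, where 63.9% of all long genes were higher and 5.72% lower. With scores of 80 or more the counts were 45 and 1, where 49.0% of all long genes were higher and 12.7% lower. They were not uniform: Zfhx3 led, and St18, a zinc finger factor with 5.01 CpGs per kb, held between 0 and 3 peaks in each library. The 50 genes of muscle and cytoskeleton had medians of 12.5% in MEFs, 12% in brain, 3.07% in liver and 6.73% in ESCs. Dst, a linker of the cytoskeleton, was the most covered of them by mean relative coverage (51.4% in brain and 33.3% in ESCs), and Sgcz, a sarcoglycan of 1139 kb, held 2 to 5 peaks in the libraries other than liver, where it had none. The 46 phosphodiesterases, kinases and phosphatase receptors were at 13.2, 13.8, 3.01 and 3.64%. By mean relative coverage Trio, an exchange factor for small GTPases, led them with 63.4% in brain and 26.4% in ESCs, and Erbb4, a neuregulin receptor of 1076 kb, was the least covered with 1 peak in ESCs and 18 in MEFs.

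Genes of the synapse lay at the low end also in brain. The 51 genes of synaptic and neuronal adhesion had a median coverage of 2.80% in MEFs, 3.89% in brain, 0% in liver and 0.561% in ESCs, and 15 of the 51 lay above the median of all long genes in brain and 5 in liver. In brain against liver 42 of these 51 were higher and none lower, where 60.1% of all long genes were higher and 13.0% lower. At a score of at least 80 the counts were 31 and 0, where 45% of all long genes were higher and 22.3% lower, with a median ratio of 2.21 against 1.20 over all long genes. The most covered of them was Odz3, a teneurin on chromosome 8, with 44.5% in MEFs, 35.8% in ESCs, 25.4% in brain and 5.60% in liver. The 20 glutamate and GABA receptor genes were at 1.41, 1.86, 0.130 and 0.699%, with 4 of 20 above the median in brain. In MEFs against ESCs 7 of these 20 were higher and 3 lower, below the 63.9% and above the 5.72% of all long genes. With scores of 80 or more they were 3 and 8, where 49.0 and 12.7% of all long genes were called. Gria4, an AMPA receptor subunit, held 2 peaks in ESCs, 1 in MEFs and none in brain and liver. The 24 genes of synaptic scaffolds and transport were at 4.61, 4.94, 1.35 and 2.03%, from Tanc1, a postsynaptic scaffold (59.3% in brain), down to Sntg1, a neuronal syntrophin (0.0867% in brain). The 35 ion channel genes were at 5.46, 4.08, 0.179 and 1.43%, with Itpr1, the calcium release channel of the endoplasmic reticulum, the most covered (55.8% in liver).

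The medians of the other lists were higher in MEFs and brain than in ESCs and liver. The 32 genes of the extracellular matrix and its receptors had a median of 15.2% in MEFs, with 21 of 32 above the long-gene median there, against 13 in ESCs, 15 in brain and 12 in liver. In MEFs against ESCs 30 of these 32 were higher and none lower, where 63.9% of all long genes were higher and 5.72% lower, and the median ratio was 3.55 against 1.89 over all long genes. With scores of 80 or more they were 26 and 1, where 49.0 and 12.7% of all long genes were called. Fndc3b led this list (40.4% in MEFs and 55.4% in liver), and Spock3, a testican proteoglycan on chromosome 8, held 4 peaks in MEFs and none elsewhere. The 22 axon guidance genes were at 6.67% in MEFs, 4.34% in brain, 0.0873% in liver and 0.657% in ESCs, and 21 of the 22 were higher in MEFs than in ESCs, where 63.9% of all long genes were (17 at a score of at least 80, where 49.0% were). Dcc, the netrin receptor, held 30 peaks in brain and 23 in MEFs but none in ESCs and liver, while Nav2, a neuron navigator, was covered to 41.0% in MEFs and 50.9% in liver. The 28 genes of common fragile sites, which break under replication stress, had medians of 5.31, 5.45, 0.676 and 1.15% in the same order, with Wwox on chromosome 8 (40.0% in MEFs) far above Lrp1b. The 31 transporters and metabolic enzymes were at 8.49, 9.92, 1.18 and 1.23%, with St3gal3, a sialyltransferase, at 71.3% in liver and Galnt13 with 2 peaks in MEFs and 2 in brain only.

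Knockdown of Suz12 was compared with the shGFP control within the long genes. In shSuz12 against shGFP 155 long genes (17.1%) were higher, against 21.9% of all genes tested, and 41 (4.51%) were lower, against 14.4%. These counts did not hold at a common score: with a score of at least 80, 125 were higher (13.8%, background 19.6%) and 334 lower (36.7%, background 35.7%), and 44 and 26 of the genes were called in both ways. The share of lower genes at this score is near the background. The genes named by the size of the difference had few peaks. Fshr, the follicle-stimulating hormone receptor, held none in shGFP and 4 in shSuz12, Nubpl 1 and 5, Wdfy4 1 and 6, and Arhgap24, a GTPase-activating protein, 3 and 13. Lower in shSuz12 were Mtap2, a microtubule protein of dendrites, with 6 peaks in shGFP and 1 in shSuz12, Synpr, a synaptic vesicle protein, with 4 and none, Hecw1 with 7 and 2, and Unc5c, a netrin receptor, with 3 and none. At a score of at least 80 none of Fshr, Wdfy4, Mtap2, Synpr, Hecw1 and Unc5c had a covered base in shSuz12.

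Regions under peaks of all 6 libraries numbered 2220 in long genes, 0.583 per 100 kb, and 4582 in the genes of 20 to 100 kb, which hold less sequence but have a larger share under peaks in each library.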

How the data were processed

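The 6 GLIB-Seq libraries, 1 a condition, measured 5hmC, and the RNA-Seq libraries of the series were not analysed here. The authors mapped reads to mm9 with Bowtie (version 0.12.7), kept reads with a unique hit, collapsed redundant ones, and ran MACS (version 1.4.1) on each library to call peaks. CASAVA 1.8 is also named in the submitters' processing notes. The deposited lists hold peak positions and a score, a MACS value that was used here only to filter and rank peaks. For no list are the score threshold or the control given in the sources used here. The lists hold no read counts, so the depth is unknown. For the MEFs, the methods give a later embryonic day than the labels do.

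Members, functional lists and the rule for named genes were chosen with earlier results of these data known. Gene spans and exons came from GENCODE M1 and sequence from NCBIM37 (mm9). A peak was counted in the gene that held its midpoint, overlapping spans were merged, and coverage is the percent of bases under peaks. Relative coverage is that percent divided by the percent of the autosomes covered in the same library. Genes were called where (A + 0.1)/(B + 0.1) was at least 1.5 or at most its inverse, with no test. First introns are those of the transcript with the widest span. Unique 32-mers are exact matches at 1 place on either strand of the genome.

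Named genes were the 5 most and 5 least covered by mean relative coverage over ESCs, MEFs, brain and liver, the 2 most and least covered in each library, the 4 largest called ratios in each direction of each comparison, the 5 longest, and the longest, most and least covered of each list. Genes overlapping one already named were passed over. For 1 of the 5 most covered genes the sequence is not reported here. In the lists, the symbol Runx2 stands for 2 gene identifiers.

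Alternatives were the 50% of peaks with the highest scores, a score of at least 80, equal numbers of peaks, percent covered and genes of at least 300 kb. Others were shorter genes between the CpG quartiles of the long genes, no chromosome 8, genes that overlap no other, and an added constant of 0.2. Tools were matplotlib 3.10.9, scipy 1.17.1, pandas 2.3.3 and numpy 2.4.6 under Python 3.11.15. The steps were tested on simulated peaks.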

Additional observations from a re-analysis of the deposited data

How the results depend on the processing

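The density ratio of long genes to genes of 20 to 100 kb, 0.386 in ESCs, 0.940 in MEFs, 0.756 in brain, 0.402 in liver, 0.409 in shGFP and 0.426 in shSuz12, stayed below 1 under every alternative except those on CpG density. With the 50% of peaks of highest score it was 0.337 in ESCs, 0.730 in brain, 0.373 in liver, 0.383 in shGFP and 0.412 in shSuz12. A score of at least 80 gave 0.689 in brain, 0.388 in shGFP and 0.386 in shSuz12, and equal numbers of peaks 0.363 in ESCs. The percent of span gave 0.360 in ESCs, 0.742 in brain, 0.377 in liver, 0.393 in shGFP and 0.417 in shSuz12. Long genes of at least 300 kb gave, in the order first listed, 0.313, 0.835, 0.663, 0.312, 0.337 and 0.355. Shorter genes between the CpG quartiles of the long genes, with the long genes not limited, gave 0.824, 1.56, 1.32, 0.537, 0.935 and 0.902, so MEFs and brain turned. Without chromosome 8 it was 0.355 in ESCs, 0.923 in MEFs, 0.392 in liver, 0.375 in shGFP and 0.390 in shSuz12. Of the 2 alternatives added after the data had been seen, leaving out the spans over 5 or more other genes gave 0.361, 0.925, 0.744, 0.390, 0.381 and 0.395. The other, a score of at least 80 with the same CpG limits on the shorter genes, gave 0.824, 2.16, 2.30, 0.537, 1.14 and 1.28. It turned all libraries but ESCs and liver. The ratio of the last to the first 10% moved to 1.28 in ESCs and 0.863 in liver with the 50% of highest score, to 1.39 in brain and 1.25 in shSuz12 at a score of at least 80, and to 0.995 in liver for genes of at least 300 kb. At a score of at least 80 the genes lower in MEFs than in ESCs went from 52 to 115, brain against ESCs from 594 to 392 higher and 51 to 182 lower, brain lower than liver from 118 to 203, and shSuz12 lower than shGFP from 41 to 334. With 0.2 added, shSuz12 against shGFP went from 155 to 78 higher and from 41 to 20 lower. The causes were not tested. No paired analysis was possible because only 1 library stands for every condition. Peak lists of unknown depth and unequal lowest score limit every comparison between libraries, and a gene without a peak may carry 5hmC below the threshold.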
